A study of Homo sapiens with 32 samples.

Results

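Transcript levels of 9 genes of retinoid metabolism and retinoid signalling were followed through the growth of esophageal epithelial spheroids. The genes were chosen by name: CRABP2, DHRS3, DHRS9, ALDH1A3, CYP26B1, STRA6, RARA, RARG and RARRES1, 9 of the 19345 gene symbols measured. The cells were EPC2, a human esophageal epithelial line immortalised with telomerase (hTERT) and labelled wild type (WT), so all 32 libraries came from 1 cell line. They were sampled as a flat monolayer at day 0 (D0, 10 libraries), as Matrigel spheroids at day 3 (D3, 9 libraries), as untreated spheroids at day 11 (D11, 7 libraries), and as D11 spheroids that had received the cytokine interleukin 13 (IL-13, 20 ng/ml) between day 3 and day 11 (6 libraries). All spheroids grew in keratinocyte serum-free medium with added calcium chloride. Libraries came from 2 independent experiments, here batch 1 and batch 2. Whether libraries of a group were separate cultures is not stated beyond this, so p-values measure the spread between these libraries.

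Retinoids are vitamin A derivatives that govern how squamous epithelia mature. A cell takes up retinol (STRA6 is a receptor for the retinol carrier of blood), oxidises it reversibly to retinal (DHRS9 in that direction, DHRS3 back to retinol), and oxidises retinal irreversibly to retinoic acid (ALDH1A3). Retinoic acid is carried to the nucleus by the binding protein CRABP2 and cleared by hydroxylation (CYP26B1). In the nucleus it binds the receptors RARA and RARG, which pair with RXR receptors on DNA and switch target genes, of which RARRES1 was named as a responder. In stratified epithelia retinoids are known to hold back late squamous differentiation.

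Levels are given in TPM, a share of the library corrected for transcript length, so that levels of different genes can be set side by side. How many reads stand behind a TPM value is not known, so counting error has no interval here. A change is a difference of log2(TPM + 1), printed with its standard error, from 1 limma fit with terms for group and batch, and a gene was called at a Benjamini-Hochberg adjusted p under 0.05 over the 12221 genes that reached 1 TPM in at least 6 libraries. The added 1 understates changes of low genes. Of the 9 genes, 7 were tested, and STRA6 and RARRES1 did not reach the minimum. CYP26B1 reached it through the monolayers and DHRS9 through the spheroids, so a difference from the other groups was in part set by the minimum. The same holds for LRAT and RDH12, which reached it through the D11 spheroids, and for AKR1B10, which did so through the spheroids. It also holds for other listed genes at means of 0 to 0.24 TPM in monolayers. Among them were ADH7, RDH16, AKR1C3, HOXA5, KRT1, LORICRIN, FLG, KRT4 and KRT13. PLAAT4, highest at D3, and ADH4, highest in monolayers, averaged under 1 TPM in every other group, so the same holds for them.

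The epithelial label fitted the libraries. The 12 squamous markers summed to 29300 to 38200 TPM in monolayers, where 1 was at 0 throughout, and to 66400 to 101000 TPM in spheroids of D3. Over all 32 libraries 11 of these 12 reached the minimum. Of 10 fibroblast markers 1 did, COL1A1, at 3.3 to 9.5 TPM in monolayers, 8.0 to 30.3 at D3, 57.9 to 78.1 in untreated D11 spheroids and 21.9 to 46.9 with IL-13, while COL1A2 and COL3A1 were listed at 0 in all 32 libraries. Of 12 immune and endothelial markers 3 did (CD14, CD68 and CSF1R, summed with the rest to 196 to 588 TPM), while PTPRC stayed at 0.1 TPM or less and PECAM1 at 0. Of 12 columnar and ciliated markers 2 did, GATA6 and SPDEF, highest in monolayers. Mitochondrial transcripts took 44.8 to 50.1% of monolayer libraries, 39.1 to 57.1% at D3, 14.8 to 27.9% in untreated D11 spheroids and 13.2 to 25.6% with IL-13. The D3 libraries lay in 2 sets: SPRR1A, a cornified envelope precursor, was at 3931.3 TPM or more in libraries 1, 3, 4, 5 and 6 and at 559.8 or less in 2, 7, 8 and 9, with library 4 of batch 1 and library 7 of batch 2 each lying with the other batch. Whether their labels were exchanged was not tested, and values at D3 within a batch rest on those labels. Without these 2 libraries the change to D3 was 5.35 for CRABP2 and -3.42 for ALDH1A3, and that from D3 to untreated D11 was 2.15 and -0.69, all called. The part of these features in the results below was not tested unless a value is given.

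Most genes differed between these groups, so a call alone says little about a gene. From monolayer to D3, 3 of the 7 tested retinoid genes rose and 3 fell, where 12.7% of all tested genes rose, 68.2% fell and 81% did either. The libraries of 5 of the 7 did not overlap between those groups, against 44.3% of all genes. From D3 to untreated D11, 2 rose and 2 fell, where 33.6% of all genes rose, 35.8% fell and 69.3% did either, and 3 of 7 did not overlap, against 38.0%. Untreated D11 spheroids set against monolayers, a comparison that shares its libraries with both, had 4 higher and 3 lower, against 21.0%, 63.5% and, in either direction, 84.5% of all genes, and 6 of 7 without overlap, against 58.7%. In both comparisons with monolayers, DHRS9 counts among the rises without overlap and CYP26B1 among the falls, each in part set by the minimum. With IL-13, 4 rose and 1 fell, against 39.2%, 8.49% and, in either direction, 47.6% of all genes, and 4 of 7 did not overlap, against 13.7%. The median log2 change of the 7 genes in these 4 comparisons was 0.09, 0.14, 1.00 and 0.48, and that of all genes -0.44, -0.02, -0.48 and 0.19. Rescaling the libraries by the median of ratios took the median of all genes to -0.01, 0.02, 0.00 and 0.00, so a member's TPM change differs from its change relative to the typical gene by about these shifts.

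**Figure D1:**
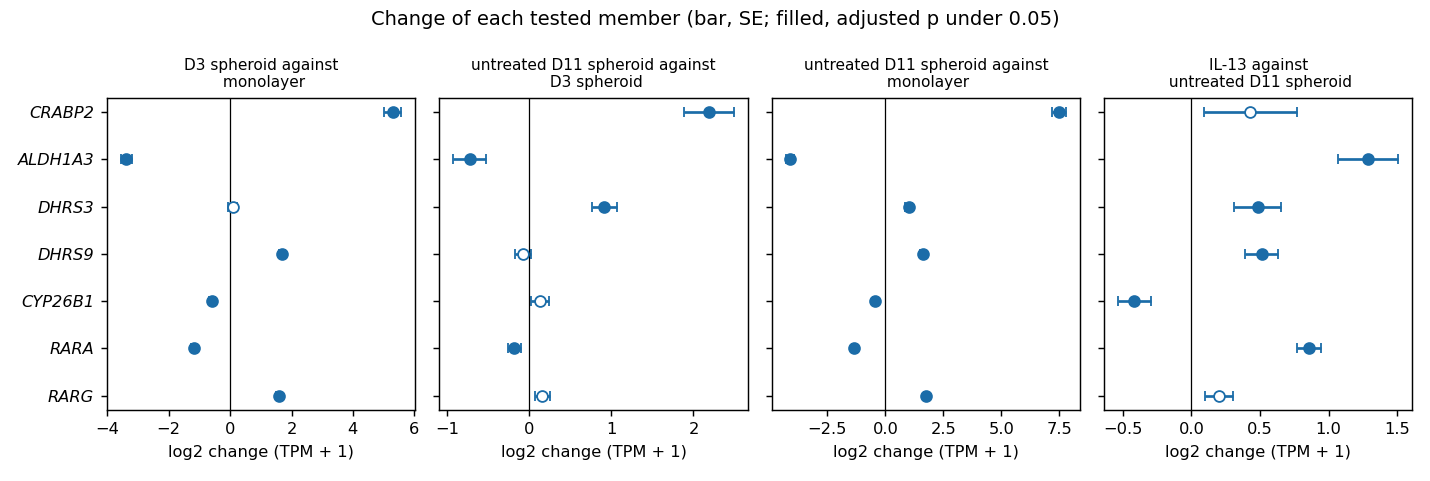
Change of the 7 tested retinoid genes in 4 comparisons. The horizontal axis is the difference of log2(TPM + 1), with a scale of its own in each panel, bars are standard errors, and filled points passed an adjusted p of 0.05; CRABP2 and ALDH1A3 moved most, in opposite directions, from monolayer to D3, by 5.30 and -3.38.

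CRABP2 was the most changed of the 9 genes during spheroid growth, though its change with IL-13 did not pass the test. It delivers retinoic acid to its receptors, and lies at chr1:156699606-156705816 on the minus strand (hg38, GENCODE 29). Monolayers held 1.5 to 3.5 TPM (median 2.0), D3 spheroids 44.3 to 264.4 (median 223.0), untreated D11 spheroids 444.8 to 650.2 (median 585.4) and IL-13 spheroids 557.2 to 910.6 (median 674). In these bulk libraries, more cells of a kind and more RNA per cell cannot be told apart. The first 3 groups lay in ascending order with no overlap between them, while the IL-13 range overlapped the untreated one. The mean went from 2.23 ± 0.631 (SD, n = 10) to 161 ± 98.9 (n = 9) and 564 ± 75.1 TPM (n = 7).

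The rise from monolayer to D3 was 5.30 ± 0.28 (limma adjusted p = 4.7e-17) and the further rise to untreated D11 was 2.19 ± 0.30 (adjusted p = 1.8e-07), 7.49 ± 0.30 in all (adjusted p = 2.7e-20). Both steps were called within each batch, at 4.95 and 5.58 for the first and 2.85 and 1.5 for the second, in batches 1 and 2. With IL-13 the mean was 708 ± 139 TPM (n = 6), a change of 0.43 ± 0.34 that did not pass the test (adjusted p = 0.30). Within D3 the 9 libraries, in order of their number, held 251.7, 49.4, 223.0, 240.1, 234.0, 264.4, 44.3, 47.4 and 90.6 TPM. Libraries 2, 7, 8 and 9, the set low in SPRR1A, were the low ones, and the lowest of them was still above every monolayer.

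Windows of 250 bases upstream of RefSeq transcription starts (GRCh38.p14) were searched for the retinoic acid receptor half-site on both strands. The letters searched were the consensus AGGTCA or a variant of it, which could be AGTTCA, or else GGGTCA, or else GGTTCA. Direct repeats of the half-site spaced by 1, 2 or 5 bases were searched as well, and each of them holds the half-site by construction. The windows of CRABP2, which rose most, ALDH1A3, which fell most, and the first start of RARA, which changed in both directions, are printed 5′ to 3′ on the strand of the gene, with half-sites in capitals. They lie at chr1:156705785-156706034 (minus), chr15:100879581-100879830 (plus) and chr17:40308930-40309179 (plus).
CRABP2: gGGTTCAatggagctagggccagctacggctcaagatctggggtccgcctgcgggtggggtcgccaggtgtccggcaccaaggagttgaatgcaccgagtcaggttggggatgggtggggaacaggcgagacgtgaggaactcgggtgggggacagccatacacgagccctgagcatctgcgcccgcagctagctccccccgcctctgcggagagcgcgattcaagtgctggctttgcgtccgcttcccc
ALDH1A3: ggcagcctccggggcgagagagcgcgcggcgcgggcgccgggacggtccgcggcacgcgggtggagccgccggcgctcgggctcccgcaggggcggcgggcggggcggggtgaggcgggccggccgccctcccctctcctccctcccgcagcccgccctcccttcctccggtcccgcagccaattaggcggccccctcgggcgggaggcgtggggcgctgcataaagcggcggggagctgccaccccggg
RARA: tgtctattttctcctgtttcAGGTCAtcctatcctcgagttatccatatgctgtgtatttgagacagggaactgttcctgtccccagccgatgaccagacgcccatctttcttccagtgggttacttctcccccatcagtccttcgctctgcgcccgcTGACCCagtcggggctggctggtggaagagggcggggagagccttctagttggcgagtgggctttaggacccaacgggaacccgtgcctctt

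The CRABP2 window held 1 half-site, which began 249 bases before the start, the RARA window held 2, at 230 and 92 bases, and the ALDH1A3 window held none. All 9 genes had an entry, with 20 starts in all, and 7 starts of 5 genes (CRABP2, DHRS3, DHRS9, RARA and STRA6) held a half-site. Of 35116 windows of all genes 33.8% did, so a half-site sets none of these genes apart. No window of the 9 genes held a direct repeat with a spacing of 1, 2 or 5 bases, which 0.0968, 0.0313 and 0.0740% of all windows did. A match of letters is no evidence of binding.

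CRABP1, the sister protein of CRABP2, was at 0.1 TPM or less in every library. FABP5, a fatty acid carrier that can also take retinoic acid to the receptor PPARD, was abundant, at 17.2 to 71.5 TPM in monolayers, 111.7 to 649.3 at D3, 1280.3 to 2102.4 in untreated D11 spheroids and 779.1 to 1456.4 with IL-13. It rose by 3.2 ± 0.34 to D3 (adjusted p = 6.4e-10) and by 2.28 ± 0.37 to D11 (adjusted p = 3.0e-06), and its change with IL-13 did not pass (-0.72 ± 0.42, adjusted p = 0.15). FABP5 has processed copies in the genome, and how the authors assigned shared reads is not stated, so its level is uncertain. LRAT, which stores retinol as esters, was at 0.1 TPM or less in monolayers and at D3, at 1.3 to 2.3 in untreated D11 spheroids (a rise of 1.37 ± 0.057 from D3, adjusted p = 5.8e-19), and slightly lower with IL-13, at 1.1 to 1.5 (-0.24 ± 0.063, adjusted p = 0.0025). Of the 4 tested genes of uptake, binding and storage outside the 9, FABP5, LRAT, DGAT1 and RETSAT, 1 rose and 1 fell from monolayer to D3 (12.7% and 68.2% of all genes), 2 rose to D11 (33.6% of all genes) and 1 rose and 1 fell with IL-13 (39.2% and 8.49%).

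**Figure D2:**
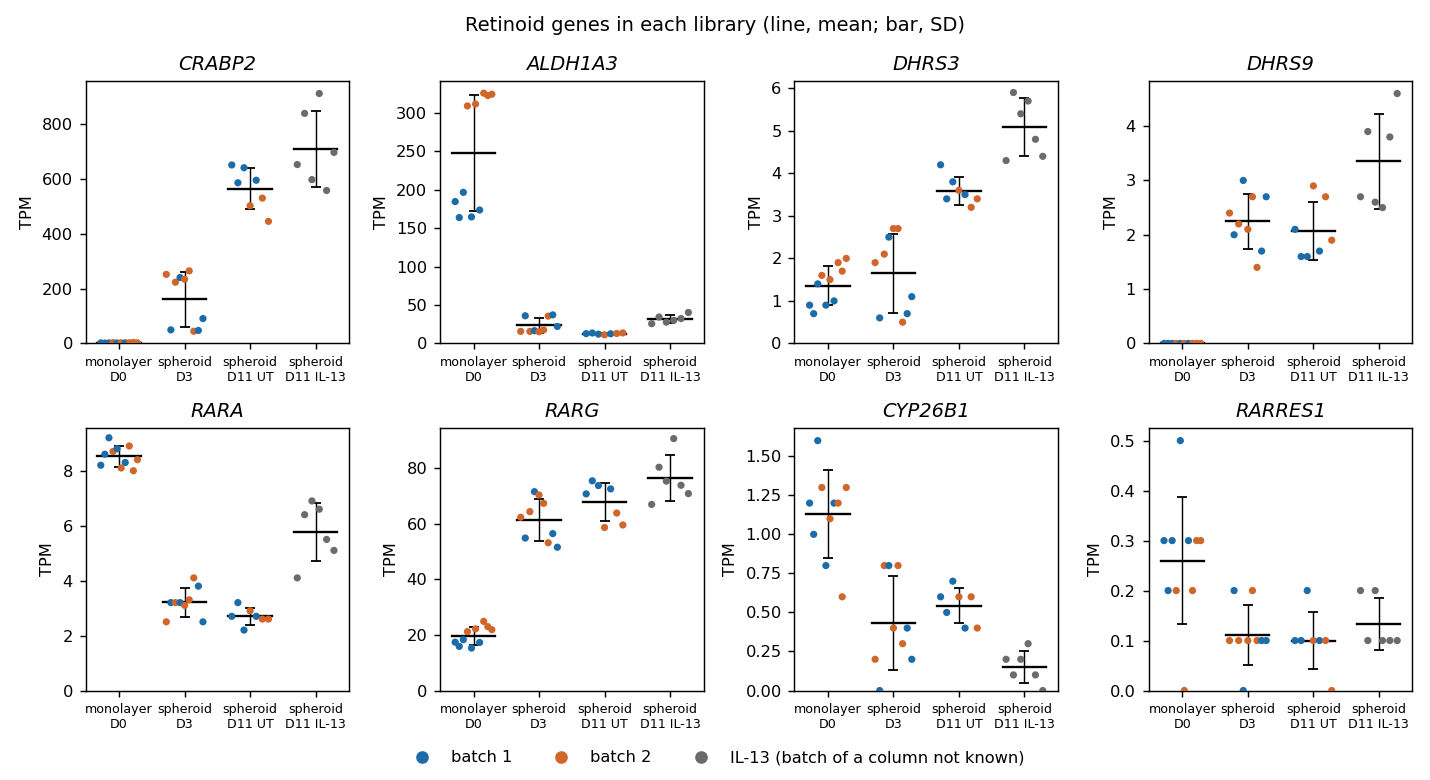
Level of 8 of the 9 genes in every library, in TPM on linear axes from 0, by group (UT, untreated). Points are libraries coloured by batch, lines are means and bars are standard deviations; STRA6 is left out because it was listed at 0 in all 32 libraries, and CRABP2 and ALDH1A3 show the D3 group spread between the monolayers and the D11 spheroids.

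ALDH1A3 moved against CRABP2. This dehydrogenase makes retinoic acid from retinal, and its gene lies at chr15:100877714-100916626 on the plus strand. Monolayers held 163.9 to 325.9 TPM (median 253), D3 spheroids 15.2 to 37.2 (median 17.6), untreated D11 spheroids 11.2 to 13.7 (median 12.8) and IL-13 spheroids 25.7 to 40.3 (median 31.2). Monolayers lay far above every spheroid, untreated D11 spheroids below every other library, and the IL-13 range overlapped that of D3. The fall from monolayer to D3 was -3.38 ± 0.18 (adjusted p = 5.8e-17), from a mean of 248 ± 75.6 (n = 10) to 23.5 ± 9.79 TPM (n = 9).

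Within D3, libraries 2, 7 and 8 held 36.0, 35.6 and 37.2 TPM of ALDH1A3 and library 9 held 22.1, while libraries 1, 3, 4, 5 and 6 held 15.2 to 17.6. The same 4 libraries were thus high in ALDH1A3 and low in CRABP2, nearest to the monolayer in both. ALDH1A3 fell between D3 and untreated D11 by 0.72 ± 0.20 (adjusted p = 0.0016), a call that was lost when libraries were weighted by how well they fitted their group (-0.02, adjusted p = 0.92). The fall was -1.0 within batch 1 and -0.54 within batch 2, both called.

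With IL-13, ALDH1A3 was higher in each of the 6 libraries than in each of the 7 untreated ones. The IL-13 libraries held 25.7, 34.4, 27.7, 30.0, 32.4 and 40.3 TPM and the untreated ones 12.8, 13.6, 12.1, 11.2, 12.6, 13.0 and 13.7. The rise was 1.29 ± 0.22 (adjusted p = 2.2e-05), with means of 31.8 ± 5.23 (n = 6) and 12.7 ± 0.869 TPM (n = 7). Of the 6 IL-13 samples 5 belong to batch 1 and 1 to batch 2, and the columns do not show which, so within-batch values could not be had. Against the 4 untreated libraries of batch 1 the change was 1.24 (adjusted p = 0.00081).

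**Figure D3:**
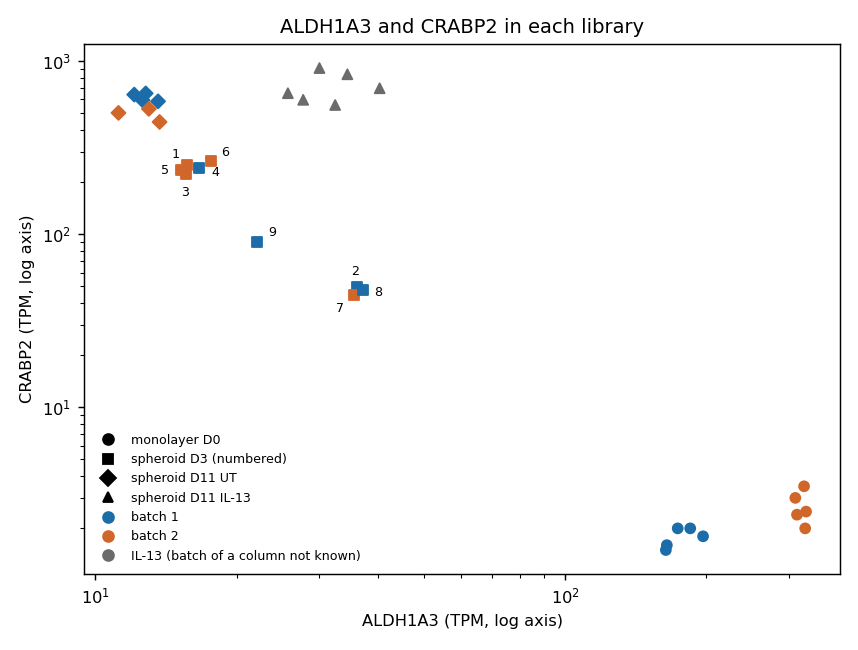
CRABP2 against ALDH1A3 in each of the 32 libraries, both in TPM on log axes. Shapes are groups, colours are batches and D3 libraries carry their number; D3 libraries 2, 7, 8 and 9 lie towards the monolayers in both genes, and the 6 IL-13 libraries lie at higher ALDH1A3 (25.7 to 40.3 TPM) than the 7 untreated D11 libraries with an overlapping range of CRABP2.

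DHRS3 returns retinal to retinol, and is itself a gene that retinoic acid induces in many cells (chr1:12567910-12617731, minus strand). It was low throughout, at 0.7 to 2.0 TPM in monolayers (median 1.45), 0.5 to 2.7 at D3 (median 1.9), 3.2 to 4.2 in untreated D11 spheroids (median 3.5) and 4.3 to 5.9 with IL-13 (median 5.1). Monolayers and D3 spheroids overlapped fully, and both D11 groups lay above them and apart from each other. At D3 the libraries held 1.9, 0.6, 2.1, 2.5, 2.7, 2.7, 0.5, 0.7 and 1.1 TPM in order of number, so the set low in CRABP2 (2, 7, 8 and 9) was the low set here as well. The change to D3 did not pass (0.09 ± 0.14, adjusted p = 0.57), and after rescaling by the median of ratios it was 0.38 (adjusted p = 0.014). The rise from D3 to untreated D11 was 0.92 ± 0.15 (adjusted p = 4.6e-06). With IL-13 it rose by a further 0.48 ± 0.17 (adjusted p = 0.021), a call that was lost after rescaling by the median of ratios (0.28, adjusted p = 0.19) or by quantiles (0.26, adjusted p = 0.22) and against batch 1 controls (0.36, adjusted p = 0.25).

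DHRS9, a dehydrogenase that acts on retinol (chr2:169064789-169096167, plus strand), was listed at 0 in all 10 monolayers and above 0 in every spheroid. D3 spheroids held 1.4 to 3.0 TPM (median 2.2), untreated D11 spheroids 1.6 to 2.9 (median 1.9) and IL-13 spheroids 2.5 to 4.6 (median 3.25). No fold is given against a group listed at 0. The rise to D3 was called (1.68 ± 0.094, adjusted p = 3.1e-16), and no change followed that passed the test from D3 to untreated D11 (-0.07, adjusted p = 0.55), where the sign differed between batches (-0.27, adjusted p = 0.041 in batch 1 and 0.15, adjusted p = 0.30 in batch 2). With mitochondrial genes removed from the library totals, the DHRS9 value there was -0.54 (adjusted p = 0.00012). That setting took the median of all genes to -0.515, so DHRS9 lay close to the typical gene. With IL-13 it rose by 0.51 ± 0.12 (adjusted p = 0.00064), with the ranges overlapping, and after quantile rescaling by 0.32 at an adjusted p of 0.050.

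Other enzymes between retinol and retinal followed several courses. Of 13 tested outside the 9 genes, 6 rose and 4 fell from monolayer to D3 (12.7% and 68.2% of all genes), 5 rose and 4 fell to untreated D11 (33.6% and 35.8%), and 2 rose and 5 fell with IL-13 (39.2% and 8.49%). Among the 6, RDH12, ADH7, AKR1B10, RDH16 and AKR1C3 averaged 0 to 0.24 TPM in monolayers. They reached the minimum through spheroids, so their rises to D3 were in part set by it. Among the 4 that fell, ADH4 averaged 1.08 TPM in monolayers and 0.3 at D3. Its fall was in part set by the minimum too. RDH10, which makes the retinal that embryos need, was at 2.8 to 4.8 TPM in monolayers, 3.6 to 4.9 at D3, 8.2 to 11.2 in untreated D11 spheroids (a rise of 0.97 ± 0.078 from D3, adjusted p = 2.9e-12) and 5.7 to 9.0 with IL-13 (a fall of -0.31 ± 0.087, adjusted p = 0.0044). RDH12, a retinal reductase best known from photoreceptors, was listed at 0 in all monolayers and reached 6.2 to 22.0 TPM in untreated D11 spheroids, against 0 to 1.1 at D3 (3.41 ± 0.18, adjusted p = 1.1e-16). With IL-13 it was at 5.5 to 7.8 TPM, a fall of -0.97 ± 0.20 (adjusted p = 2.1e-04). AKR1B10, another enzyme that reduces retinal, peaked at D3, with 13.9 to 21.6 TPM against 0 to 0.4 in monolayers and 3.1 to 4.4 in untreated D11 spheroids. It fell by 1.91 ± 0.089 from D3 to D11 (adjusted p = 8.9e-18) and by 0.99 ± 0.099 with IL-13 (adjusted p = 2.5e-09). ALDH1A1, a sister of ALDH1A3, was listed at 0 in all 32 libraries. AKR1B10 and DHRS4, which was at 5.0 to 9.8 TPM in untreated D11 spheroids and rose to between 12.2 and 19.0 with IL-13 (0.87 ± 0.13, adjusted p = 3.3e-06), have near-identical relatives, so their levels are uncertain.

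CYP26B1, which hydroxylates retinoic acid and so ends its action (chr2:72129238-72148038, minus strand), was near the bottom of the measured range in every group. Monolayers held 0.6 to 1.6 TPM (median 1.2), D3 spheroids 0 to 0.8 (median 0.4), untreated D11 spheroids 0.4 to 0.7 (median 0.6) and IL-13 spheroids 0 to 0.3 (median 0.15). Values are rounded to 0.1 TPM, so neighbouring libraries differ by few steps. It fell by 0.59 ± 0.097 from monolayer to D3 (adjusted p = 2.3e-06), with overlap. Untreated D11 spheroids were -0.45 ± 0.10 below monolayers (adjusted p = 2.0e-04), a call that was lost after rescaling by the median of ratios (-0.19, adjusted p = 0.098) or by quantiles (-0.22, adjusted p = 0.058). With IL-13 it fell by 0.42 ± 0.12 (adjusted p = 0.0051), each of the 6 libraries lying below each of the 7 untreated ones. Between D3 and untreated D11 the value was 0.14 (adjusted p = 0.26).

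CYP26A1, the enzyme of this family that retinoic acid induces most readily, did not exceed 0.3 TPM. CYP2S1, which can also break down retinoic acid, was at 24.0 to 57.3 TPM in monolayers, 11.5 to 16.9 at D3 and 4.5 to 7.5 in untreated D11 spheroids, and fell at both steps (-1.39 ± 0.13, adjusted p = 5.6e-11, then -1.15 ± 0.14, adjusted p = 3.0e-08). With IL-13 it was at 9.6 to 14.4 TPM, a rise of 1.10 ± 0.16 (adjusted p = 2.3e-06) with no overlap. STRA6 (chr15:74179466-74212267, minus strand) was listed at 0 in all 32 libraries. A value of exactly 0 in such a table can be a failed estimate, though none of 20 housekeeping genes was at 0 in any library.

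The 2 retinoic acid receptors that were detected parted on the way into spheroids. RARA (chr17:40309192-40357643, plus strand) was at 8.0 to 9.2 TPM in monolayers (median 8.5), 2.5 to 4.1 at D3 (median 3.2), 2.2 to 3.2 in untreated D11 spheroids (median 2.7) and 4.1 to 6.9 with IL-13 (median 5.95). Monolayers and IL-13 spheroids each stood apart from untreated D11 spheroids, and D3 overlapped the latter. RARA fell by 1.19 ± 0.073 from monolayer to D3 (adjusted p = 2.8e-15). The fall of 0.18 ± 0.080 from D3 to untreated D11 passed narrowly (adjusted p = 0.045) and did not pass within either batch, where it was about as large (-0.17, adjusted p = 0.13 in batch 1 and -0.19, adjusted p = 0.094 in batch 2). With mitochondrial genes removed from the library totals it was -0.69 (adjusted p = 9.3e-07), where the median of all genes was -0.515. The call held in 6 of the 14 alternative settings that did not leave out a single library. Rescaling by the median of ratios (-0.14, adjusted p = 0.059) or by quantiles (-0.12, adjusted p = 0.11) lost it. So did a pseudocount of 5, no filter, only the 2 groups in the fit, or leaving out D3 libraries 4 and 7. It was also lost when any of 12 of the 16 libraries was left out, and it passed without D3 library 1 or 9 or untreated D11 library 2 or 4 (adjusted p from 0.016 to 0.11 over all 16).

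With IL-13, RARA rose by 0.86 ± 0.089 (adjusted p = 5.7e-09). The 6 IL-13 libraries held 4.1, 6.4, 6.9, 6.6, 5.5 and 5.1 TPM and the 7 untreated ones 2.7, 3.2, 2.2, 2.9, 2.7, 2.6 and 2.6, so every treated library lay above every untreated one and below every monolayer. The call held in all 11 alternative settings that did not leave out a single library, at 0.48 to 1.05, with 0.66 after rescaling by the median of ratios.

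RARG, the receptor that predominates in skin keratinocytes (chr12:53210567-53232980, minus strand), was at 15.3 to 24.9 TPM in monolayers (median 19.8), 51.6 to 71.6 at D3 (median 62.4), 58.7 to 75.5 in untreated D11 spheroids (median 70.8) and 67.0 to 90.7 with IL-13 (median 74.7). Monolayers lay below all spheroids, whose 3 ranges overlapped. RARG rose by 1.59 ± 0.083 from monolayer to D3 (adjusted p = 5.4e-17) and was 1.75 ± 0.089 above monolayers at untreated D11 (adjusted p = 1.5e-17). For untreated D11 against D3 the value was 0.16 ± 0.091 (adjusted p = 0.12), and its sign depended on the setting. It was 0.33 in batch 1 (adjusted p = 0.0067) and -0.06 in batch 2 (adjusted p = 0.55). When mitochondrial genes were taken out of the library totals it was -0.43 (adjusted p = 0.00036), where the median of all genes was -0.515. It also passed without D3 library 4 (0.21, adjusted p = 0.045) or untreated D11 library 4 (0.21, adjusted p = 0.044) with library weights (0.42, adjusted p = 7.4e-05) and after rescaling by the median of ratios (0.22, adjusted p = 0.012). With IL-13 it was 0.20 ± 0.10 (adjusted p = 0.10), and -0.05 after rescaling by the median of ratios.

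The ratio of RARG to RARA within a library does not depend on how libraries are scaled. It was 1.74 to 2.88 in monolayers (2.32 ± 0.418, n = 10), 13.0 to 25.0 at D3 (19.6 ± 3.88, n = 9), 20.2 to 33.5 in untreated D11 spheroids (25.4 ± 4.20, n = 7) and 10.9 to 16.3 with IL-13 (13.5 ± 1.78, n = 6). As a ratio of geometric means, it was 8.39-fold higher at D3 than in monolayers (two-sided exact permutation test on the log2 ratio, p = 1.1e-05, the smallest it can give, adjusted p = 8.8e-05 over 8 tests). It was 1.88-fold lower with IL-13 than without, with no overlap (exact p = 0.00058, the smallest it can give, adjusted p = 0.00077). At untreated D11 it was 1.31-fold higher than at D3 (exact p = 0.012, adjusted p = 0.014), with overlap, and in batch 2 alone 0.19 on the log2 scale (exact p = 0.55). These ratio tests were chosen after the levels had been seen, and they carry no batch term.

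The ratio of FABP5 to CRABP2, the carriers that lead to PPARD and to the RAR receptors, was 5.11 to 47.7 in monolayers, 2.19 to 3.54 at D3, 2.19 to 4.73 in untreated D11 spheroids and 1.38 to 1.84 with IL-13. In monolayers it differed by batch, at 36.5 ± 6.65 (n = 5) in batch 1 and 7.52 ± 2.23 (n = 5) in batch 2. With IL-13 it was 1.94-fold lower than without, with no overlap (exact p = 0.00058, adjusted p = 0.00077). That test carries no batch term. Untreated D11 libraries averaged 2.58 in batch 1 and 3.65 in batch 2. The call held in all 14 alternatives, among them that against batch 1 controls only. From D3 to untreated D11 the test did not pass (exact p = 0.27), with a log2 change of -0.13 in batch 1 (exact p = 0.49) and 0.53 in batch 2 (exact p = 0.018). The doubt on FABP5 reads holds here as well.

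**Figure D4:**
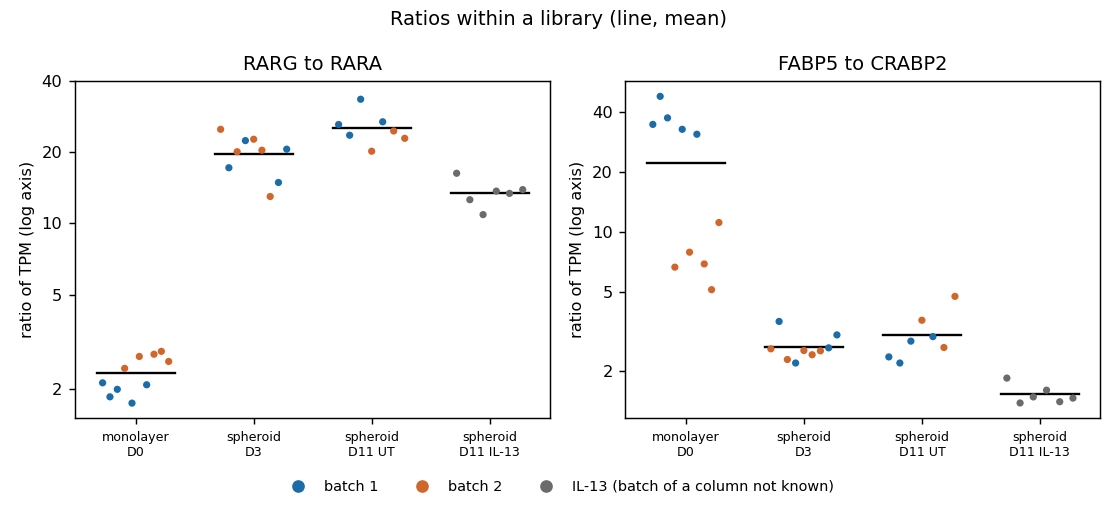
Ratio of RARG to RARA and of FABP5 to CRABP2 in each library, on log axes, by group (UT, untreated). Points are libraries coloured by batch and lines are group means; the IL-13 libraries lie below all untreated D11 libraries in both panels, at 10.9 to 16.3 and 1.38 to 1.84.

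RARB, the receptor gene that retinoic acid itself induces, was listed at 0 in all 32 libraries. RXRA, the common partner, was at 6.5 to 7.6 TPM in monolayers, 9.2 to 13.1 at D3, 6.6 to 7.4 in untreated D11 spheroids and 8.3 to 10.9 with IL-13. It rose to D3 (0.59 ± 0.056, adjusted p = 9.4e-11), fell to D11 (-0.56 ± 0.062, adjusted p = 2.9e-09) and rose with IL-13 (0.34 ± 0.069, adjusted p = 2.5e-04), the last call being lost after rescaling by the median of ratios (0.11, adjusted p = 0.21) or by quantiles (0.09, adjusted p = 0.29). PPARD was at 4.7 to 9.9 TPM at D3, rose to between 24.6 and 34.2 in untreated D11 spheroids (1.94 ± 0.12, adjusted p = 1.6e-14) and was at 10.7 to 19.4 with IL-13 (-0.74 ± 0.14, adjusted p = 8.0e-05). NRIP1, a corepressor that binds RAR receptors, took the same course, with a rise of 1.16 ± 0.071 to D11 (adjusted p = 6.8e-15) and a fall of -0.94 ± 0.080 with IL-13 (adjusted p = 7.8e-11). Of 13 tested receptors and coregulators outside the 9 genes, 1 rose and 10 fell from monolayer to D3 (12.7% and 68.2% of all genes), 5 rose and 4 fell to D11 (33.6% and 35.8%), and 3 rose and 2 fell with IL-13 (39.2% and 8.49%).

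RARRES1, a membrane protein named for its induction by retinoids (chr3:158696892-158732696, minus strand), was at 0 to 0.5 TPM in monolayers (median 0.3) and 0 to 0.2 in each spheroid group, too low for the test. Fitted with no minimum level, it was -0.17 at D3 against monolayer (adjusted p = 0.0013), a difference of 1 or 2 steps of the rounding. Other genes known to respond to retinoic acid moved in both directions. Of 8 tested outside the 9, 2 rose and 4 fell from monolayer to D3 (12.7% and 68.2% of all genes), 2 rose and 3 fell to untreated D11 (33.6% and 35.8%), and 3 rose and 1 fell with IL-13 (39.2% and 8.49%). HOXA5 and PLAAT4, the genes that rose to D3, averaged 0.13 and 0.57 TPM in monolayers and 1.09 and 1.77 at D3. Their rises were in part set by the minimum. PLAAT4 averaged 0.0857 TPM in untreated D11 spheroids, so its fall from D3 was in part set by the minimum as well. TGM2, a transglutaminase that retinoic acid induces in many cells, was at 12.0 to 15.6 TPM in monolayers, 0.1 to 0.6 at D3, 7.7 to 12.7 in untreated D11 spheroids and 4.1 to 5.9 with IL-13. It fell by 3.46 ± 0.086 to D3 (adjusted p = 4.9e-25), rose by 3.14 ± 0.095 to D11 (adjusted p = 4.9e-22) and fell by 0.88 ± 0.11 with IL-13 (adjusted p = 8.6e-08). LRG1, a secreted glycoprotein, was at 0.6 to 1.6 TPM in untreated D11 spheroids and rose to between 5.5 and 23.3 with IL-13 (3.04 ± 0.21, adjusted p = 4.4e-13).

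Over the whole pathway, 71 further genes were listed, 70 were in the table, 7 of these were at 0 in all libraries and 40 were tested. From monolayer to D3 11 of the 40 rose and 20 fell (12.7% and 68.2% of all genes). From D3 to untreated D11 14 rose and 13 fell (33.6% and 35.8% of all genes). With IL-13 11 rose, 9 fell and 20 did not pass, where 39.2% of all genes rose and 8.49% fell. The minimum had a part in some of these calls, as given above. After rescaling by the median of ratios or by quantiles 19 or 18 rose to D3, beside 4061 or 3773 of all tested genes. With IL-13 6 or 7 then rose, beside 2348 or 2320. With mitochondrial genes removed 9 rose and 26 fell from D3 to untreated D11, beside 1663 and 8018 of all tested genes. Without such changes, the median log2 changes of the 40 genes were -0.24, 0.01 and 0.06, beside -0.44, -0.02 and 0.19 for all genes.

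**Figure D5:**
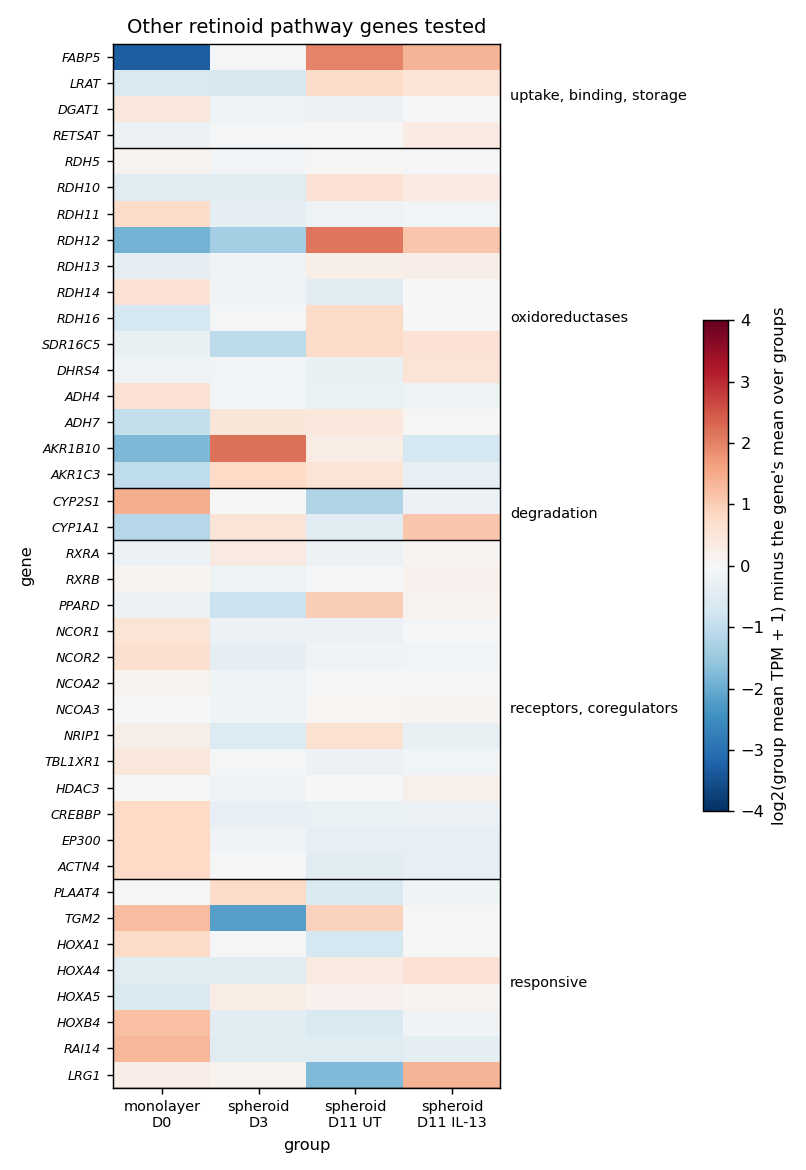
The 40 tested genes of the retinoid pathway outside the 9, as log2(group mean TPM + 1) minus the mean of that value over the 4 groups (UT, untreated), coloured from -4 to 4. Rows are grouped by role; FABP5, LRAT and RDH12 are highest in untreated D11 spheroids, AKR1B10 at D3 and LRG1 with IL-13.

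Keratinocyte genes that retinoids are known to lower or raise were read as a further description. Of 6 tested genes that retinoids lower (KRT1, KRT10, LORICRIN, FLG, IVL and TGM1, all of squamous differentiation), all 6 rose from monolayer to D3 and again from D3 to untreated D11, and 5 fell with IL-13 (12.7% and 33.6% of all genes rose and 8.49% fell in these comparisons). KRT1, LORICRIN and FLG averaged 0, 0 and 0.06 TPM in monolayers, so they reached the minimum through spheroids. Their rise from monolayers was in part set by it. IVL and TGM1 were also low there, at means of 0.63 and 0.88 TPM. IVL, an envelope protein, was at 0 to 1.4 TPM in monolayers, 335.5 to 578.5 in untreated D11 spheroids and 45.2 to 184.2 with IL-13 (-2.33 ± 0.45, adjusted p = 1.2e-04). Of 5 tested genes that retinoids raise, 2 rose and 2 fell to D3 (12.7% and 68.2% of all genes). To D11 1 rose and 3 fell (33.6% and 35.8%). With IL-13 2 rose (39.2% of all genes), the esophageal keratins KRT4 (5.59 ± 0.35, adjusted p = 7.6e-14) and KRT13 (4.15 ± 0.31, adjusted p = 3.7e-12). These 2 averaged 0 and 0.11 TPM in monolayers, so their rise to D3 was in part set by the minimum. KRT4 was at 12.3 to 17.7 TPM in untreated D11 spheroids and at 484.7 to 1034.5 with IL-13. These genes answer to many other signals, and their link to the retinoid genes was not tested.

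The batches differed most in the monolayers, where 56.4% of all tested genes differed between them and 24.7% were higher in batch 2. Of the 7 tested members 3 differed there, all higher in batch 2. ALDH1A3 was at 163.9 to 196.7 TPM in batch 1 and 309.2 to 325.9 in batch 2 (0.85 ± 0.18, adjusted p = 2.3e-04), RARG at 15.3 to 18.3 and 21.2 to 24.9 (0.41 ± 0.084, adjusted p = 1.5e-04) and DHRS3 at 0.7 to 1.4 and 1.5 to 2.0 (0.48 ± 0.18, adjusted p = 0.028). The other 4 tested members did not pass there. At D3 none of 12221 genes differed between batches at a limma adjusted p under 0.05 (1218 did at an unadjusted p under 0.05), and CRABP2, DHRS3 and ALDH1A3 had unadjusted p of 0.011, 0.037 and 0.020, with libraries 4 and 7 lying against their batch. In untreated D11 spheroids 29.9% of all genes differed, among them RARG (-0.27 ± 0.10, adjusted p = 0.047). The change from monolayer to D3 differed between batches for 1 of the 7 members, ALDH1A3, against 36.2% of all genes, and that from monolayer to untreated D11 for 2, ALDH1A3 and RARG, against 40.4%.

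For each tested member, the genes with the most similar course over the 32 libraries were taken by the root mean square difference of standardised log2(TPM + 1), where 0 is an identical course. CRABP2 lay nearest to S100A9 (0.0864), PKP1 (0.0910) and KRT16 (0.101), and ALDH1A3 nearest to TACC1 (0.164), NRP1 (0.166) and THSD4 (0.181). RARG lay nearest to FXYD3 (0.166), CEBPA (0.177) and ALOX15B (0.177), and DHRS9 to ALOX15B (0.215), GPNMB (0.220) and SERPINB13 (0.230). RARA lay nearest to HS3ST1 (0.242), GIT1 (0.254) and PLEKHO2 (0.257), and DHRS3 to FGF11 (0.223), STAP2 (0.251) and UBXN6 (0.253). CYP26B1 had no close match, its nearest being NDST1 (0.409), EPN3 (0.480) and LIPE (0.505). The libraries share 4 group means and 2 batches, so many genes follow like courses.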

How the data were processed

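Bulk RNA was sequenced from 32 EPC2 libraries. The authors deposited 1 table of TPM values per gene symbol, rounded to 0.1, whose library sums are 999959.6 to 999989.3; per the submitters' processing notes the build was hg38. Of the aligner, quantifier, annotation and strand handling nothing is given in the sources used. Read depth cannot be had from TPM, and the scatter of libraries within a group was the measure of precision. Of the columns, 26 matched 1 sample by name; the 6 IL-13 columns matched the group only and carried its share of batch 2 (1 of 6) in the fit. Values were log2(TPM + 1), fitted in limma 3.58.1 (R 4.3.3) with an intensity trend; ratio tests and tables used Python 3.11.15. The interaction of group and batch was tested in a second fit. Within groups, libraries correlated at 0.974 to 0.997 across genes. The share of equal values, taken over genes of higher mean level only, was at most 3.56%. The 9 genes and all lists were chosen with earlier results of these data known. Named genes were the 9, the 2 largest called rises and falls of each list per comparison, further genes named whatever their result (RARB, RXRA, ALDH1A1, CYP26A1, RDH10, LRAT and CRABP1) and the 3 genes nearest to each member. Some genes that reached the minimum through spheroids or through monolayers were named as well. Alternatives covered the pseudocount, filter, scaling, batch, libraries in the fit, weights and single libraries left out. Both kinds of test were checked on simulated data. Promoter windows came from RefSeq (GRCh38.p14), gene positions from GENCODE 29. 1 part of the culture protocol and the result of 1 gene are not reported here.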

Additional observations from a re-analysis of the deposited data

Results flagged for a closer look

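The change of ALDH1A3 from monolayer to D3 spheroid differed between the batches. It was -2.69 in batch 1 and -4.01 in batch 2 on the log2 scale, a difference of -1.32 ± 0.26 (limma interaction, adjusted p = 0.00028), where 36.2% of all genes had such a difference. The fall was called in both batches. The monolayers of batch 2 held more ALDH1A3 (319 ± 7.76 TPM, n = 5) than those of batch 1 (177 ± 14.0, n = 5), while the batch 2 D3 libraries had the lower mean.

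The change from monolayer to untreated D11 spheroid, which shares those monolayers, differed for ALDH1A3 by -0.87 ± 0.28 (adjusted p = 0.016) and for RARG by -0.67 ± 0.13 (adjusted p = 0.00018), where 40.4% of all genes differed. RARG was 2.06 higher at D11 in batch 1 and 1.39 higher in batch 2. Between D3 and untreated D11 no tested member differed between batches at an adjusted p under 0.05 (limma interaction, 6.19% of all genes did), and CRABP2, DHRS9 and RARG had unadjusted p of 0.025, 0.041 and 0.0078.

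Among 31 groups of libraries examined for a lone extreme value, 1 was found, where chance gives about 1 in 20. RARRES1 in D3 library 4 was listed at 0, below the next library at 0.1 TPM, a gap of 0.5 of the group's range. This is 1 step of the rounding.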

How the results depend on the processing

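Between D3 and untreated D11 the count of members that fell was 2, and it was 1 with a pseudocount of 5, with no filter, after median-of-ratios or quantile scaling, in batch 2 alone, with only the 2 groups in the fit, with library weights and without D3 libraries 4 and 7, and 4 with mitochondrial genes removed. A filter of 5 TPM left 1 member higher from D3 to D11, 2 higher from monolayer to D11, and 2 higher and 0 lower with IL-13, since fewer members were tested, and quantile scaling left 2 higher with IL-13. Calls over all genes depended on scaling. From monolayer to D3 1556 rose and 8339 fell, against 4061 and 4050 (median of ratios) and 3773 and 4353 (quantiles). For D11 against monolayer 2561 were higher and 7765 lower, against 4902 and 4915 (median of ratios), 4351 higher (quantiles) and 1479 higher (mitochondrial genes removed). With IL-13 4785 rose and 1037 fell, against 2348 and 2521 (median of ratios), 2320 and 2502 (quantiles) and 2414 rises against batch 1 controls. From D3 to D11 4102 rose and 4370 fell, against 1663 and 8018 with mitochondrial genes removed, where the median of all genes was -0.515. The count of other retinoid genes that rose moved with the scaling as given above, and for D11 against monolayer from 14 to 23 (median of ratios). With no filter it was 23 from D3 to D11 and 22 for D11 against monolayer, with a filter of 5 TPM 6 to D3, and against batch 1 controls 7 with IL-13. The cause of these shifts was not tested.

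Signs turned only for values that had not passed: RARG with IL-13 (-0.0479 after median-of-ratios and -0.0235 after quantile scaling), RARG from D3 to D11 (-0.0222 by quantiles, -0.429 without mitochondrial genes, -0.0593 in batch 2), CYP26B1 from D3 to D11 (-0.0195 without mitochondrial genes), DHRS9 from D3 to D11 (0.15 in batch 2), DHRS3 from monolayer to D3 (-0.00473 without D3 library 4, to 0.195 without D3 library 7) and the log2 ratio of FABP5 to CRABP2 from D3 to D11 (-0.127 in batch 1, and 0.525, exact p = 0.018, in batch 2). DHRS3 with IL-13 also missed the threshold with a pseudocount of 0.1 (0.62, adjusted p = 0.071) and without the batch term (0.40, adjusted p = 0.069), and so did LRAT (-0.41, adjusted p = 0.17) and RDH12 (-0.99, adjusted p = 0.069) with that pseudocount.

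Leaving out 1 library at a time gave 3 and 3 members higher and lower at D3, 2 to 3 and 1 to 2 from D3 to D11, 4 and 3 for D11 against monolayer, and 4 and 1 with IL-13; over all genes it gave 1465 to 1603 and 8091 to 8366, 3940 to 4184 and 4163 to 4511, 2469 to 2580 and 7594 to 7789, and 4101 to 6130 and 938 to 1064.

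Groups share replicate numbers, but of 9 same-numbered pairs of monolayer and D3 only 2 shared a batch. Their deviations correlated at -0.444 to 0.356, with 5 of 9 at 0.1 or less. Of 7 pairs of monolayer and untreated D11, 6 shared a batch, and they correlated at -0.0225 to 0.0556. The numbers were therefore not read as pairs, though such correlations cannot exclude a shared culture. With the replicate block the members higher and lower were 3 and 3, 2 and 2, and 4 and 3, as without it, and all genes 1551 and 8376, 4085 and 4488, and 2519 and 7758. The numbers of the IL-13 columns differ from those of the IL-13 samples, so no block was fitted there. No library depth is known, so no limit from depth can be given.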
